A study of Mus musculus with 24 samples.

Results

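The poly(I:C) response was examined in mouse LSK cells that are labelled FancgKO_Mdm4Tg, meaning that they lack Fancg and carry an Mdm4 transgene. The libraries were taken by genotype and treatment label: 2 from mice given poly(I:C) (replicates 7 and 8) and 3 from mice given PBS, the vehicle (replicates 2, 7 and 8), so 5 of the 24 libraries of the series. LSK cells are the bone marrow cells without lineage antigens that carry Sca-1 and Kit, among which are blood stem cells and multipotent progenitors. The other groups used here are WT (4 PBS and 3 poly(I:C) libraries), FancgKO (4 and 3) and Mdm4Tg (3 and 2). Polyadenylated RNA was sequenced after sorting. The labels give no dose, timing, age, transgene promoter or number of animals. They do not say that replicates came from separate mice, so the spread behind the p-values may be partly technical. All values are normalised counts made by the authors, given below in the order PBS replicates 2, 7 and 8, then poly(I:C) replicates 7 and 8.

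Poly(I:C) is a synthetic double-stranded RNA that Toll-like receptor 3 and the cytosolic helicases of the RIG-I family detect, which leads to production of type I interferon. Interferon signals through JAK kinases and STAT factors to a large set of antiviral genes, and it drives dormant blood stem cells into division. Fancg belongs to the Fanconi anaemia pathway of DNA crosslink repair, as part of its ubiquitin ligase complex, and Mdm4 encodes an inhibitor of the tumour suppressor p53. The comparison asks which transcripts of the double mutant LSK cells differed between poly(I:C) and vehicle.

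Mdm4, the transgene's gene, was at 6908, 5799 and 5969 with PBS and 5899 and 5024 with poly(I:C), against 750.9 to 1293 in the 14 libraries without the transgene. Mdm4 lies on chromosome 1 at 132959484 to 133030561 of GRCm38 (minus strand), and its log2 difference between poly(I:C) and PBS was -0.19 ± 0.16 (SE, n = 2 and 3). Fancg (chromosome 4, 43002343 to 43010506, minus strand) was at 39.8, 53.5 and 71.4 with PBS and 46.7 and 53.3 with poly(I:C), and PBS replicate 8 lay within the WT range of 61.5 to 78.4. Which stretch of Fancg is deleted is not given in the sources used here, so a count over the whole gene does not check that label.

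Kit was at 1483 to 2071 in the 5 libraries and the pan-leukocyte gene Ptprc at 1198 to 1869.5. Ly6a, which encodes Sca-1, was at only 20.7 to 44.2, and it was at 11.7 to 45.9 in the 24 libraries. Among the antigens of mature cells, Ly6g was at 0 in all 5 libraries, and Cd3e, Cd8a, Cd79a, C1qa, Cdh5, Col1a1 and Cxcl12 were at no more than 2.65, the worth of 1 read in PBS replicate 2. Xist, the transcript of the inactive X chromosome, stayed at or below 1.72 and the Y-linked Ddx3y was at 354 to 559.5 in all 5 libraries. In bulk RNA, fewer cells of a type and less RNA per cell cannot be told apart.

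The libraries differed in depth and in content before any gene was compared. They held 949156, 2865682 and 1406126 reads with PBS and 2056492 and 5491225 with poly(I:C). PBS replicate 2 stood apart on the first principal component of the 5 libraries (39.1% of the variance), and poly(I:C) replicate 8 on the second (31.7%). Mitochondrial transcripts took 7.40% of the counts in PBS replicate 2 and 8.92% in poly(I:C) replicate 8, against 4.85% to 4.91% in the other 3. The ribosomal RNA gene CT010467.1 took 3.81%, 1.01% and 0.824% with PBS and 0.371% and 0.310% with poly(I:C). Genes are therefore given library by library, and the part of depth or RNA content in the differences was not tested.

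No gene passed the threshold when all 12628 tested genes were compared with limma (Benjamini-Hochberg adjusted p under 0.05), which is 0% of the background. The smallest adjusted p was 0.282. This fit had no term for the replicate number, and genes were called with such a term, as given in the last section. At an unadjusted p under 0.05, 557 genes lay higher (4.41%) and 525 lower (4.16%) with poly(I:C), and edgeR also called 0 genes on the recovered reads. DESeq2 called 5: Trib2, Ms4a2, Il1rl1 and E2f8 on the higher side and Stat4 on the lower. Both poly(I:C) libraries lay above all 3 PBS libraries for 1477 genes (11.7%) and below them for 1546 (12.2%). With 2 against 3 libraries there are 10 splits, so an exact permutation test cannot go below 0.1 one-sided or 0.2 two-sided for a single gene.

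The 2 poly(I:C) libraries did not lie equally far from the vehicle. Of the 1082 genes at an unadjusted p under 0.05, poly(I:C) replicate 8 was the farther from the PBS mean for 778, with a median absolute log2 difference of 0.989 against 0.684 for replicate 7. Over all genes tested these medians were 0.369 and 0.289. Without poly(I:C) replicate 8 the counts at an unadjusted p under 0.05 were 222 higher and 235 lower, and without poly(I:C) replicate 7 they were 929 and 780. Neither of these left a gene past the limma threshold.

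**Figure D1:**
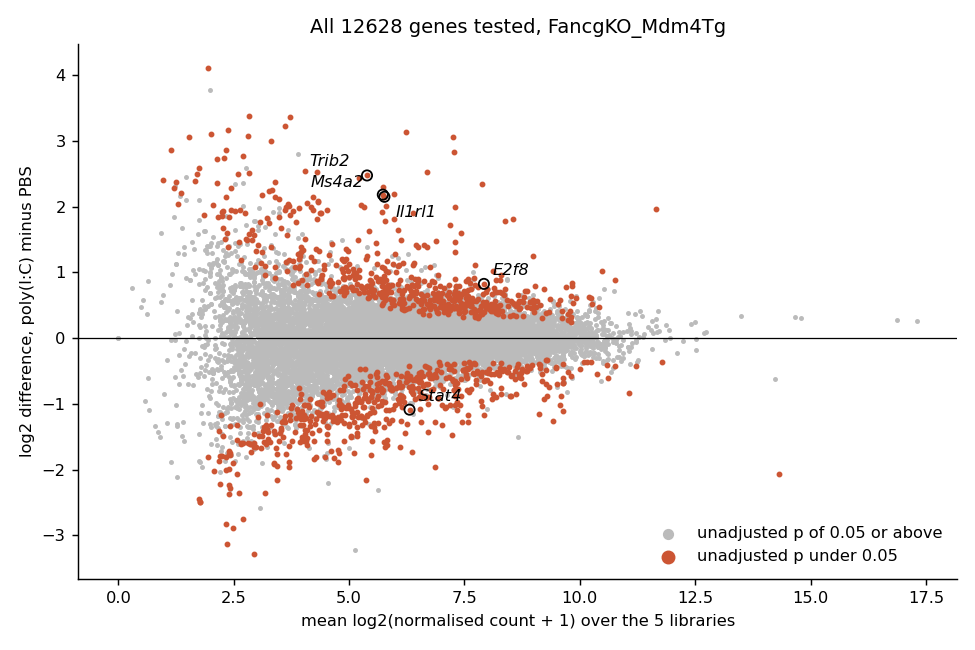
Log2 difference between poly(I:C) and PBS in FancgKO_Mdm4Tg (y axis) against the mean log2 normalised count over the 5 libraries (x axis), 1 point per gene for 12628 genes. Red points are the 1082 genes at an unadjusted limma p under 0.05, and circles mark the 5 genes called by DESeq2, of which Stat4 alone is below 0.

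Trib2, Ms4a2 and Il1rl1 had the smallest p-values of the higher genes in DESeq2. Trib2 encodes a Tribbles pseudokinase that promotes the breakdown of C/EBPα, the transcription factor of granulocyte and monocyte commitment. It was at 29.2, 18.1 and 15.3 with PBS and 89.9 and 150 with poly(I:C), so both treated libraries were above every vehicle library, with a log2 difference of 2.47 ± 0.48 (SE, n = 2 and 3). Its adjusted p was 0.282 in limma, 0.111 in edgeR and 0.000956 in DESeq2. Trib2 (ENSMUSG00000020601) lies on chromosome 12 at 15791727 to 15816922.

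Ms4a2 encodes the beta chain of the high-affinity IgE receptor of mast cells and basophils. Its counts were 29.2, 23.3 and 32.3 with PBS and 93.5 and 182 with poly(I:C), without overlap, and the log2 difference was 2.18 ± 0.45 (n = 2 and 3; DESeq2 adjusted p 0.00155, limma adjusted p 0.282). Il1rl1 encodes the IL-33 receptor ST2, which the same cells carry. Counts of Il1rl1 were 53.0, 26.7 and 17.0 with PBS and 103 and 169 with poly(I:C), again without overlap, with a log2 difference of 2.15 ± 0.46 (DESeq2 adjusted p 0.00537, limma adjusted p 0.309). The genes lie on chromosome 19 at 11615523 to 11623719 and on chromosome 1 at 40429570 to 40465415. In each of the 3 genes poly(I:C) replicate 8 was the higher of the 2 treated libraries. Over 18 settings without a replicate block, the adjusted p of Trib2, Ms4a2, Il1rl1, E2f8 and Stat4 was under 0.05 with DESeq2 alone, and it reached 0.912 for each when poly(I:C) replicate 8 was left out.

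The stretch upstream of the start site is shown for Ms4a2 and Il1rl1, since these mast cell genes lay higher together and GATA and C/EBP factors are known regulators of mast cell transcription. The sequences are RefSeq's (GRCm38.p6), 5′ to 3′ on the gene's strand, and end at the base before the start site (chr19:11623720-11623869, minus strand, and chr1:40429420-40429569, plus strand). Capitals mark matches to the GATA motif (AGATAA or TGATAA) or the C/EBP motif (TTGCNNAA) on either strand.
Ms4a2: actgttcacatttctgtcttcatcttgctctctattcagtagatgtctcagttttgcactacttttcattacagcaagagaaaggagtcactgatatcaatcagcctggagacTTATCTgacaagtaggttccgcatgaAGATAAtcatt
Il1rl1: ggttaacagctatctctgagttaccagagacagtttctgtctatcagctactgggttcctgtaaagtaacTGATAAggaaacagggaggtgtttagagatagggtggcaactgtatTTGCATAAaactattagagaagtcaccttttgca
In the 250 bases before the start site, Ms4a2 held 3 GATA matches (2 in the stretch shown) and Il1rl1 held 2 GATA matches (1 shown) and 1 C/EBP match. Of 27025 RefSeq promoters of that length, 16.9% held a GATA match and 9.55% a C/EBP match. Trib2 and Stat4 held neither of these, nor the E2F motif TTTNNCGC (4.4% of promoters) or the interferon response element (GAAA, any 2 bases, GAAA; 3.05%), each searched on both strands. E2f8 held 1 interferon response element match and no E2F match. A match describes letters only.

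E2f8 encodes an atypical E2F factor that represses E2F targets late in S phase. It was at 172, 228 and 180.2 with PBS and 347 and 333 with poly(I:C), with a log2 difference of 0.82 ± 0.17 (n = 2 and 3; DESeq2 adjusted p 0.0301, limma adjusted p 0.282), and here the 2 treated libraries were close to each other. Stat4 encodes a transcription factor that carries signals of interleukin-12 and type I interferon in lymphocytes. It was at 114, 115 and 91.8 with PBS and 57.5 and 42.5 with poly(I:C), with a log2 difference of -1.09 ± 0.23 (DESeq2 adjusted p 0.0332, limma adjusted p 0.309). Both treated libraries were below every vehicle library. E2f8 lies on chromosome 7 at 48866429 to 48881596 and Stat4 on chromosome 1 at 51987148 to 52107189.

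**Figure D2:**
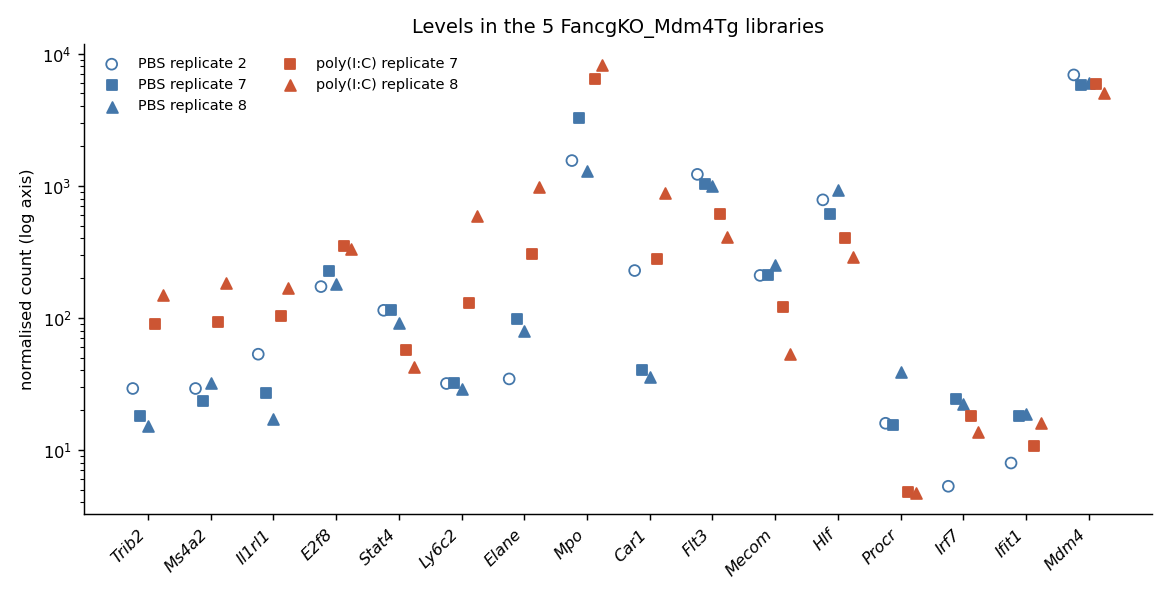
Normalised counts (log axis) of 16 genes in the 5 FancgKO_Mdm4Tg libraries, 1 point per library, blue for PBS and red for poly(I:C), with the marker shape giving the replicate. Both red points lie above all blue points for Trib2, Ms4a2, Il1rl1, E2f8, Ly6c2, Elane, Mpo and Car1, below them for Stat4, Flt3, Mecom, Hlf and Procr, and among them for Irf7 and Ifit1.

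Among genes with a mean count of at least 50 over the 5 libraries, an unadjusted p under 0.05 and no overlap between the groups, the 12 largest differences each way were taken. Of the 4 largest on the higher side, 3 were genes of early granulocytes and monocytes and 1 was the erythroid gene Car1. Ly6c2, which encodes a surface antigen of monocytes and their progenitors, was at 31.8, 31.9 and 28.9 with PBS and 129 and 592 with poly(I:C) (3.13 ± 1.06 on the log2 scale). Elane, which encodes neutrophil elastase, was at 34.5, 97.5 and 79.9 with PBS and 306 and 979 with poly(I:C) (3.06 ± 1.25). Ms4a3, a gene of the granulocyte and monocyte progenitor, was at 58.3, 51.7 and 42.5 with PBS and 132 and 657 with poly(I:C) (2.52 ± 0.94). In these 3 the treated libraries lay above the vehicle libraries, as the rule required, but differed from each other by more than 3-fold.

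Igsf6, an immunoglobulin superfamily gene of myeloid cells, was at 18.6, 22.4 and 13.6 with PBS and 61.1 and 165 with poly(I:C), and F13a1, the A subunit of coagulation factor XIII, at 188, 154 and 61.2 with PBS and 441 and 875 with poly(I:C). Car1, the erythroid carbonic anhydrase, was at 228, 40.5 and 35.7 with PBS and 280.4 and 883 with poly(I:C) (2.82 ± 0.92), and PBS replicate 2 came near the lower treated library. The receptor tyrosine kinase Met (2.30 ± 0.64), the TRAF-binding Tifab (2.20 ± 0.60) and Mtus1 (2.03 ± 0.81) complete the 12 genes of largest difference. The 12 had limma adjusted p-values from 0.282 to 0.546.

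On the lower side the 12 genes of largest difference were more mixed. Mecom, which encodes the stem cell transcription factor EVI1, was at 209, 211 and 253 with PBS and 121 and 52.8 with poly(I:C) (-1.47 ± 0.49). Emp1, an epithelial membrane protein, was at 146, 97.5 and 90.1 with PBS and 40.7 and 27.8 with poly(I:C) (-1.66 ± 0.52), and Myof, a ferlin of membrane repair, was at 101, 84.5 and 74.8 with PBS and 28.8 and 28.8 with poly(I:C) (-1.55 ± 0.43). Gimap8, a GTPase of lymphocytes, was at 90.2, 37.9 and 109 with PBS and 19.2 and 21.7 with poly(I:C) (-1.77 ± 0.68). By the rule of selection, no treated library reached the lowest vehicle library for these genes.

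Sema3d, a secreted semaphorin, was at 95.5, 40.5 and 105 with PBS and 9.58 and 25.9 with poly(I:C) (-2.16 ± 0.98), and Crispld1 at 87.5, 54.3 and 117 with PBS and 32.3 and 22.2 with poly(I:C) (-1.58 ± 0.65). Usp43 had 605, 88.8 and 148 with PBS and 40.7 and 62.7 with poly(I:C), with PBS replicate 2 far above the other 4 libraries. The ribosomal RNA gene CT010467.1 (-2.08 ± 0.80) was likewise highest in PBS replicate 2. The unnamed or noncoding loci C230085N15Rik (-1.73 ± 0.47), Gm47087 (-1.65 ± 0.56), E430014B02Rik (-1.63 ± 0.54) and Gm38380 (-1.56 ± 0.56) make up the 12. Limma adjusted p-values of the 12 ran from 0.488 to 0.569. C230085N15Rik and E430014B02Rik lie within Satb1 (chromosome 17, 51736187 to 51833290, minus strand), on the same strand. Satb1 itself differed by -1.02 ± 0.35, so these may not be separate results.

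Interferon target genes, the textbook response to poly(I:C), showed no common direction. Of 80 interferon-stimulated genes listed, 67 were tested, 29 of them lay on the higher side, and the median log2 difference was -0.04, against 0.02 over all genes tested. At an unadjusted p under 0.05, 3 were higher and 4 lower (4.48% and 5.97%, near the 4.41% and 4.16% of all genes). Of the 67, 7 lay above and 7 below all PBS libraries (11.7% and 12.2% of all genes did). The list's median against the PBS mean was -0.01 in poly(I:C) replicate 7 and -0.00 in replicate 8.

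Irf7, the master factor of the late interferon response, was at 5.30, 24.1 and 22.1 with PBS and 18.0 and 13.7 with poly(I:C), with a log2 difference of 0.11 ± 0.51 that changed sign under several alternatives. Ifit1, an inhibitor of viral translation, was at 7.96, 18.1 and 18.7 with PBS and 10.8 and 16.0 with poly(I:C) (-0.08 ± 0.51), and its sign changed too, for instance to 0.03 under quantile normalisation. Isg15 (0.943 to 5.30) and Ifit3 (at most 1.72) were too low to be tested. The groups overlapped in each of these 4 genes.

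Oasl2 was at 71.6, 104 and 79.9 with PBS and 77.9 and 57.1 with poly(I:C) and Rsad2, which encodes viperin, at 23.9, 34.5 and 56.1 with PBS and 26.4 and 30.7 with poly(I:C), and neither gene separated the groups. Usp18, the deconjugase of ISG15, was at 13.3, 20.7 and 17.0 with PBS and 27.6 and 21.2 with poly(I:C) (0.51 ± 0.38). The members with the smallest unadjusted p-values pointed both ways. Oas1b, of the oligoadenylate synthetase family, was at 18.6, 16.4 and 13.6 with PBS and 3.59 and 8.02 with poly(I:C) (-1.41 ± 0.46), and Slfn8 at 154, 169.9 and 165 with PBS and 121 and 112 with poly(I:C) (-0.48 ± 0.18). Ly6e was at 573, 858 and 600.2 with PBS and 1094 and 1182 with poly(I:C) (0.77 ± 0.29) and Slfn2 at 2.65, 3.45 and 5.10 with PBS and 8.39 and 19.3 with poly(I:C) (1.58 ± 0.59), where 1 read was worth 2.65 in PBS replicate 2.

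The interferon-inducible GTPases, which attack vacuoles of pathogens, had 2 of 14 tested genes on the higher side and a median of -0.25. There was 1 gene each way at an unadjusted p under 0.05 (7.14% each, against 4.41% and 4.16% of all genes). Ifi47 was at 249, 228 and 241 with PBS and 297 and 366 with poly(I:C) (0.46 ± 0.16), and Gbp3 at 76.9, 99.2 and 96.9 with PBS and 104 and 190.1 with poly(I:C) (0.63 ± 0.31). Gbp9 was at 5.30, 6.90 and 8.50 with PBS and 2.40 and 0.472 with poly(I:C), too low for a firm difference. The list's median was -0.54 in poly(I:C) replicate 7 and -0.13 in replicate 8.

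Upstream of these genes, 11 of 23 tested genes of RNA sensing and its adaptors lay on the higher side (median -0.02). The list took in genes beyond double-stranded RNA sensing, such as Tlr7. At an unadjusted p under 0.05, 2 were higher and 2 lower (8.70% each, against 4.41% and 4.16% of all genes). Myd88, the adaptor of most Toll-like receptors, was at 23.9, 47.4 and 34.0 with PBS and 53.9 and 57.1 with poly(I:C) (0.70 ± 0.25), and the mitochondrial regulator Nlrx1 at 5.30, 14.7 and 11.9 with PBS and 30.0 and 22.2 with poly(I:C) (1.30 ± 0.55). Tlr7, a receptor of single-stranded RNA, was at 114, 46.6 and 61.2 with PBS and 16.8 and 37.3 with poly(I:C) (-1.42 ± 0.54) and the kinase gene Tbk1 at 270.5, 209 and 219 with PBS and 169 and 188 with poly(I:C) (-0.37 ± 0.17). Both lay lower in each treated library than in any vehicle library.

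Interferon receptors and the JAK-STAT genes numbered 11 of 24 on the higher side (median -0.06). There were 2 each way at an unadjusted p under 0.05 (8.33% each, against 4.41% and 4.16% of all genes). Ifngr1, a chain of the interferon-gamma receptor, was at 257, 219 and 248 with PBS and 329 and 666 with poly(I:C) (0.96 ± 0.35), and its partner Ifngr2 at 39.8, 71.6 and 47.6 with PBS and 71.9 and 83.5 with poly(I:C) (0.58 ± 0.27). Cish, a feedback inhibitor of STAT5 signalling, was at 29.2, 27.6 and 22.1 with PBS and 14.4 and 11.3 with poly(I:C) (-0.98 ± 0.38).

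Genes of the neutrophil and monocyte progenitor lay higher as a group. Of 52 listed, 45 were tested, 43 lay on the higher side, and the median log2 difference was 1.17. At an unadjusted p under 0.05, 22 were higher (48.9%, against 4.41% of all genes) and 0 lower. Of the 45, 29 lay above all PBS libraries (11.7% of all genes did). The list's median was 0.90 in poly(I:C) replicate 7 and 1.67 in replicate 8, against -0.16 to 0.31 in the PBS libraries. Over all genes tested, the medians in poly(I:C) replicates 7 and 8 were 0.01 and 0.02.

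Mpo, myeloperoxidase, was at 1551, 3245 and 1304 with PBS and 6479 and 8159 with poly(I:C) (1.96 ± 0.74). The granule proteases followed, with Prtn3 at 164, 294 and 175 with PBS and 499.6 and 983 with poly(I:C) (1.78 ± 0.72) and Ctsg at 215, 323 and 170.0 with PBS and 587 and 1087 with poly(I:C) (1.81 ± 0.67). Each of these genes was highest in poly(I:C) replicate 8. Cebpa, whose product commits progenitors to granulocytes and monocytes, was at 71.6, 99.2 and 68.0 with PBS and 163 and 172 with poly(I:C) (1.08 ± 0.33), and the 2 treated libraries were close. Fcer1g, the shared Fc receptor gamma chain, was at 5.30, 21.6 and 6.80 with PBS and 33.5 and 47.6 with poly(I:C) (1.99 ± 0.54), and the Fc receptor gene Fcgr3 at 2.65, 6.90 and 3.40 with PBS and 27.6 and 75.9 with poly(I:C) (3.22 ± 1.00). The genes of this list summed to 5102 to 8061 with PBS and 13593 and 22411 with poly(I:C).

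Mast cell and basophil genes had 13 of 18 tested members on the higher side (28 listed) and a median of 0.41. Beside Ms4a2 and Il1rl1, Hdc, which makes histamine, was at 31.8, 28.5 and 11.9 with PBS and 70.7 and 118 with poly(I:C) (2.00 ± 0.79), and the mast cell protease Cpa3 was at 188, 159 and 109 with PBS and 261 and 291 with poly(I:C) (0.89 ± 0.37). These 4 genes were those at an unadjusted p under 0.05 (22.2%, against 4.41% of all genes). Without poly(I:C) replicate 8 the list's median was 0.33, against 0.01 over all genes tested. The summed count of the list did not separate the groups, at 2973 to 5049 with PBS and 4121 and 3756 with poly(I:C). Of 11 eosinophil genes 4 were tested, all on the higher side, and Siglecf, an eosinophil lectin, was at 37.1, 19.8 and 17.0 with PBS and 61.1 and 73.6 with poly(I:C) (1.49 ± 0.45).

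Erythroid genes lay on the higher side for 30 of 33 tested (47 listed), with a median of 0.98, and 7 had an unadjusted p under 0.05 (21.2%, against 4.41% of all genes). The list medians were 1.00 and 0.90 in poly(I:C) replicates 7 and 8 against -0.15 to 0.19 with PBS. Over all genes tested, those of poly(I:C) replicates 7 and 8 were 0.01 and 0.02. Gata1, the factor of erythroid and megakaryocytic fate, was at 34.5, 39.7 and 27.2 with PBS and 82.7 and 61.3 with poly(I:C) (1.07 ± 0.64), and its partner Klf1 at 10.6, 13.8 and 5.10 with PBS and 20.4 and 42.5 with poly(I:C) (1.58 ± 0.81). Kel, the Kell blood group antigen, was at 13.3, 3.45 and 5.10 with PBS and 25.2 and 33.5 with poly(I:C) (2.04 ± 0.70), and the lipid transporter gene Mfsd2b at 74.2, 193 and 78.2 with PBS and 343 and 242 with poly(I:C) (1.46 ± 0.53). Epor and the urea transporter gene Slc14a1 differed by 1.25 ± 0.91 and 0.89 ± 0.32.

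Of 16 heme synthesis genes tested, 12 lay on the higher side (median 0.28). An unadjusted p under 0.05 was reached by 3 (18.8%, against 4.41% of all genes). Alas1, the first enzyme of the pathway outside red cells, was at 68.9, 103 and 102 with PBS and 220.4 and 402 with poly(I:C) (1.72 ± 0.57), and the mitochondrial transporter gene Abcb10 at 66.3, 78.5 and 62.9 with PBS and 116 and 145 with poly(I:C) (0.90 ± 0.27). Megakaryocyte genes had a median of 0.44 (24 of 33 higher), with 6.06% at an unadjusted p under 0.05, close to the 4.41% of all genes. Pf4, platelet factor 4, was at 34.5, 56.1 and 52.7 with PBS and 109 and 111 with poly(I:C) (1.22 ± 0.83) and the thrombin receptor gene F2r at 236, 279 and 216 with PBS and 394 and 392 with poly(I:C) (0.70 ± 0.32). Its relative F2rl2 was at 2.65, 18.1 and 3.40 with PBS and 26.4 and 20.3 with poly(I:C). Itga2b and Vwf split the treated libraries, at 79.6, 305 and 162 with PBS and 371 and 121 with poly(I:C) and at 39.8, 92.3 and 35.7 with PBS and 131 and 42.9 with poly(I:C), so that replicate 7 was highest and replicate 8 within the vehicle range.

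**Figure D3:**
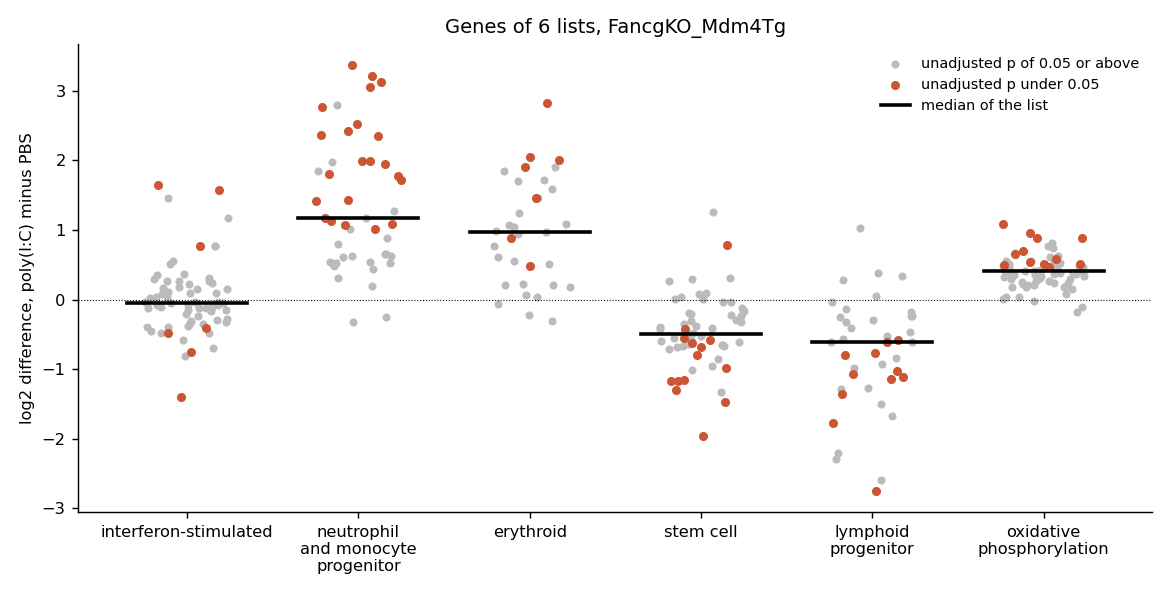
Log2 difference between poly(I:C) and PBS in FancgKO_Mdm4Tg for the tested genes of 6 lists, 1 point per gene, red at an unadjusted limma p under 0.05, with black bars at the list medians. The medians are -0.04 for interferon-stimulated genes, 1.17 for neutrophil and monocyte progenitor, 0.98 for erythroid, -0.50 for stem cell, -0.61 for lymphoid progenitor and 0.41 for oxidative phosphorylation genes.

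Stem cell genes lay lower as a group. Of 70 listed, 58 were tested, 48 lay on the lower side, and the median log2 difference was -0.50. At an unadjusted p under 0.05, 13 were lower (22.4%, against 4.16% of all genes) and 1 higher. Of the 58, 22 lay below all PBS libraries (12.2% of all genes did). The list's median was -0.24 in poly(I:C) replicate 7 and -0.68 in replicate 8, against -0.15 to 0.12 in the PBS libraries. Over all genes tested, the medians of the same poly(I:C) libraries were 0.01 and 0.02.

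Procr, which encodes the stem cell antigen EPCR, was at 15.9, 15.5 and 39.1 with PBS and 4.79 and 4.72 with poly(I:C) (-1.96 ± 0.59). Hlf, a transcription factor of long-term stem cells, was at 782, 606 and 928 with PBS and 404 and 287 with poly(I:C) (-1.16 ± 0.50), and Prdm16, a relative of Mecom, at 53.0, 34.5 and 32.3 with PBS and 22.8 and 12.3 with poly(I:C) (-1.17 ± 0.39). No treated library reached the lowest vehicle library in these genes. The stem and progenitor antigen gene Cd34 was at 1952, 1882 and 2040.2 with PBS and 1484 and 1439 with poly(I:C) (-0.42 ± 0.17). The imprinted adaptor gene Grb10 was the member on the higher side at an unadjusted p under 0.05, at 55.7, 58.6 and 66.3 with PBS and 76.7 and 142 with poly(I:C) (0.79 ± 0.30).

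Lymphoid progenitor genes had 35 of 40 tested members on the lower side (53 listed) and a median of -0.61. At an unadjusted p under 0.05, 11 were lower (27.5%, against 4.16% of all genes) and 0 higher, and 16 lay below all PBS libraries (12.2% of all genes did). The 11 became 7 without PBS replicate 8, while the 525 lower genes of all tested became 372. Both treated libraries were below the vehicle, at list medians of -0.57 and -0.66 against -0.30 to 0.17.

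Flt3, the cytokine receptor of lymphoid-primed progenitors, was at 1219.8, 1031 and 993 with PBS and 606 and 407 with poly(I:C) (-1.12 ± 0.37). Satb1, a chromatin organiser of lymphoid fate, was at 1297, 816 and 956 with PBS and 579 and 422 with poly(I:C) (-1.02 ± 0.35), and Dntt, the terminal transferase of antigen receptor joining, at 965, 335 and 702 with PBS and 179 and 258 with poly(I:C) (-1.50 ± 0.82). PBS replicate 7 had the lowest vehicle level of each of the last pair. The GTPase genes Gimap1 (47.7, 40.5 and 69.7 with PBS and 19.2 and 19.8 with poly(I:C)) and Gimap9 (98.1, 57.8 and 74.8 with PBS and 32.3 and 57.1 with poly(I:C)) differed by -1.35 and -0.79.

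Genes of other mature cells were few. Of 24 T and NK cell genes 5 were tested, of 21 B and plasma cell genes 10, of 24 stromal and endothelial genes 5 and of 19 macrophage genes 6, and 0 of these had an unadjusted p under 0.05. Summed over the tested genes, the counts were 178 to 239.8 with PBS and 223 and 357 with poly(I:C) for T and NK cells and 119 to 154 with PBS and 175 and 225 with poly(I:C) for macrophages. For B and plasma cells they were 498 to 1509.8 with PBS and 442 and 781 with poly(I:C), and for stroma and endothelium 371 to 727 with PBS and 652 and 365 with poly(I:C). The macrophage sum was thus highest in the treated libraries, while its defining gene C1qa was at 0, 0 and 0 with PBS and 0 and 1.42 with poly(I:C). The part of these cells in the group differences was not tested.

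Cell cycle genes lay slightly higher. Of 57 S phase and replication genes, 52 were on the higher side (median 0.22) and 16 lay above all PBS libraries (11.7% of all genes did). Of the 57, 6 had an unadjusted p under 0.05 (10.5%, against 4.41% of all genes). The list's median was 0.19 in poly(I:C) replicate 7 and 0.28 in replicate 8, against 0.01 and 0.02 over all genes tested. Beside E2f8, Ccne1, which encodes cyclin E1, was at 13.3, 26.7 and 17.0 with PBS and 37.1 and 44.3 with poly(I:C) (1.11 ± 0.41), and Cdt1, a licensing factor of replication origins, at 106, 174 and 129 with PBS and 207 and 204 with poly(I:C) (0.62 ± 0.26). Dut, the dUTPase, was at 273, 216 and 316 with PBS and 289 and 494 with poly(I:C) (0.51 ± 0.21), with poly(I:C) replicate 7 inside the vehicle range.

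Of 63 genes of G2 and mitosis, 54 were on the higher side (median 0.18) and 5 had an unadjusted p under 0.05 (7.94%, against 4.41% of all genes). The 5 became 1 without PBS replicate 8, while the 557 higher genes of all tested became 403. Without poly(I:C) replicate 8 the list's median was 0.17. Ccnb1, cyclin B1, was at 146, 150.1 and 129 with PBS and 185 and 257 with poly(I:C) (0.62 ± 0.24), the kinase gene Plk1 at 50.4, 94.9 and 51.0 with PBS and 104 and 108 with poly(I:C) (0.76 ± 0.30) and the kinetochore gene Knl1 at 907, 699 and 731 with PBS and 919 and 1088 with poly(I:C) (0.37 ± 0.17). Each was higher in both treated libraries than in any vehicle library. CDK inhibitors and quiescence genes were split, with 10 of 23 higher (median -0.02). Txnip, whose product restrains glucose uptake, was at 724, 1005 and 1576 with PBS and 808 and 611 with poly(I:C) (-0.57 ± 0.24).

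The replication histones lay on the higher side for 50 of 51 tested (median 0.51), but 1 had an unadjusted p under 0.05 (1.96%, against 4.41% of all genes). It was Hist1h4n, at 53.0, 81.9 and 78.2 with PBS and 103 and 150.5 with poly(I:C) (0.83 ± 0.36). The medians of the histone list were -0.68 in PBS replicate 2 and 0.69 in PBS replicate 7, so the vehicle libraries spread more widely than the 2 groups differed.

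Protein folding, energy and translation genes lay higher too. Their list medians were higher in poly(I:C) replicate 8 than in replicate 7, though for glycolysis they were close. Of 34 tested genes of the unfolded protein response, which adapts the endoplasmic reticulum to its load, 32 were on the higher side (median 0.50). Of the 34, 11 had an unadjusted p under 0.05 (32.4%, against 4.41% of all genes). The list's median was 0.20 in replicate 7 and 0.78 in replicate 8. Without PBS replicate 8, 3 genes were higher at that p, while the 557 of all genes tested became 403.

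Edem1, which sends misfolded glycoproteins to degradation, was at 263, 269.9 and 249.9 with PBS and 367 and 479 with poly(I:C) (0.68 ± 0.18), and the calcium-binding chaperone gene Calr at 1392, 1462 and 1209 with PBS and 2037 and 3061 with poly(I:C) (0.89 ± 0.34). Ero1l, an oxidase of disulfide formation, was at 146, 107 and 93.5 with PBS and 162 and 243 with poly(I:C) (0.80 ± 0.30) and Sdf2l1 at 45.1, 43.1 and 18.7 with PBS and 62.3 and 110.4 with poly(I:C) (1.30 ± 0.52). All 4 were highest in replicate 8.

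Oxidative phosphorylation genes lay on the higher side for 72 of 75 tested (median 0.41). Of the 75, 12 had an unadjusted p under 0.05 (16.0%, against 4.41% of all genes). The list's median was 0.04 in poly(I:C) replicate 7 and 0.75 in replicate 8, so the median difference came mostly from replicate 8. Both treated libraries lay above all PBS libraries for 26 of the 75 genes (and for 11.7% of all genes). Without PBS replicate 8, 7 genes were higher at that p, while the 557 of all genes tested became 403. Ndufb9, of complex I, was at 13.3, 23.3 and 32.3 with PBS and 37.1 and 59.4 with poly(I:C) (1.09 ± 0.33), and Uqcrc2, of complex III, at 244, 273 and 260.1 with PBS and 297 and 449 with poly(I:C) (0.49 ± 0.18). Poly(I:C) replicate 8 had the largest mitochondrial share (8.92%) and the greatest depth, whose part in this was not tested.

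Glycolysis genes were on the higher side for 23 of 29 (median 0.48), with 7 at an unadjusted p under 0.05 (24.1%, against 4.41% of all genes). The 7 became 3 without PBS replicate 8 and 12 without PBS replicate 7. Over all genes tested, the 557 became 403 and 760. The list medians were 0.45 and 0.48 in poly(I:C) replicates 7 and 8, and PBS replicate 7 was at 0.31. Ldha, lactate dehydrogenase A, was at 469, 548 and 452 with PBS and 732 and 921 with poly(I:C) (0.75 ± 0.26). In the pentose phosphate branch G6pdx was at 66.3, 96.6 and 54.4 with PBS and 114 and 145 with poly(I:C) (0.86 ± 0.33) and Pgd at 156, 185 and 145 with PBS and 223 and 332 with poly(I:C) (0.75 ± 0.29).

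Ribosomal protein genes were on the higher side for 76 of 79 (median 0.31), and 26 lay above all PBS libraries (11.7% of all genes did). Rpl13a was at 106, 79.3 and 91.8 with PBS and 114 and 143 with poly(I:C) (0.47 ± 0.21). It was the only 1 at an unadjusted p under 0.05 (1.27%, against 4.41% of all genes). Leaving out PBS replicate 2, 7 or 8 gave 4, 5 or 0, against 506, 760 or 403 over all genes tested. The median of the ribosomal protein list was 0.21 in poly(I:C) replicate 7 and 0.39 in replicate 8. Ribosome biogenesis genes were higher for 49 of 50 (median 0.34), with 7 at an unadjusted p under 0.05 (14.0%, against 4.41% of all genes). The 7 became 12 without PBS replicate 2 and 6 without PBS replicate 7 or 8 (506, 760 and 403 over all genes). The median of the ribosome biogenesis list was 0.17 in poly(I:C) replicate 7 and 0.39 in replicate 8. The helicase gene Ddx18 was at 47.7, 82.8 and 68.0 with PBS and 109 and 119 with poly(I:C) (0.81 ± 0.20) and Pes1, of the complex that matures the large subunit, at 101, 159.6 and 131 with PBS and 204 and 218 with poly(I:C) (0.71 ± 0.24). Myc itself was at 713, 746 and 578 with PBS and 872 and 864 with poly(I:C) (0.36 ± 0.20), and its network was split, with 6 of 13 higher. Mlx, a partner of the glucose-sensing factors, was at 45.1, 49.2 and 27.2 with PBS and 70.7 and 97.2 with poly(I:C) (1.06 ± 0.31).

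**Figure D4:**
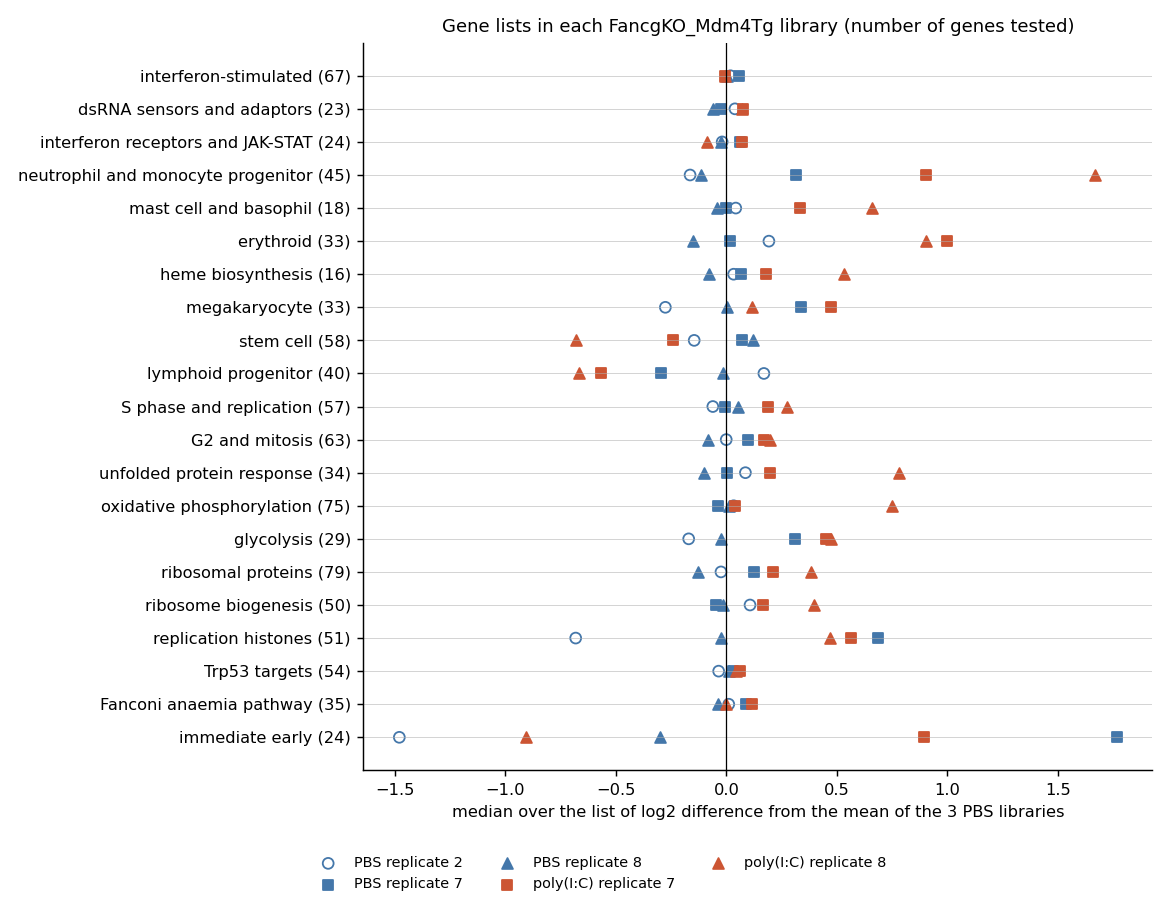
Median over the genes of each of 21 lists of the log2 difference from the mean of the 3 PBS libraries (x axis), 1 point per FancgKO_Mdm4Tg library, blue for PBS and red for poly(I:C), with the marker shape giving the replicate. For oxidative phosphorylation poly(I:C) replicate 8 stands at 0.75 and replicate 7 at 0.04, while for erythroid genes they stand at 0.90 and 1.00.

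Genes of the p53 pathway, which the Mdm4 transgene bears on, showed little difference. Among 17 regulators 8 were on the higher side (median -0.02) and 0 had an unadjusted p under 0.05. Trp53 was at 236, 343 and 189 with PBS and 310.3 and 305 with poly(I:C) (0.31 ± 0.22) and Mdm2, the main ubiquitin ligase of p53, at 255, 235 and 257 with PBS and 217 and 227 with poly(I:C) (-0.16 ± 0.16). Cdkn1a, the p53 target that encodes the cell cycle inhibitor p21, was at 29.2, 37.9 and 23.8 with PBS and 31.1 and 30.7 with poly(I:C) (0.05 ± 0.52), a difference whose sign was not stable.

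Of 54 tested p53 targets, 31 were on the higher side (median 0.03). At an unadjusted p under 0.05, 5 were higher and 3 lower (9.26% and 5.56%, against 4.41% and 4.16% of all genes). The 5 became 3 without PBS replicate 2 or 7 and 4 without PBS replicate 8 (506, 760 and 403 over all genes). The 3 became 2 without PBS replicate 7 or 8 (591 and 372 over all genes). Sesn1, a stress sensor that restrains mTORC1, was at 276, 261 and 332 with PBS and 182 and 184 with poly(I:C) (-0.65 ± 0.19), and Trp53inp1 at 355, 311 and 399.6 with PBS and 165 and 208 with poly(I:C) (-0.93 ± 0.39). Both lay lower in the treated libraries. The iron reductase gene Steap3 was at 61.0, 45.7 and 27.2 with PBS and 85.1 and 87.3 with poly(I:C) (1.01 ± 0.34) and the thiamine transporter gene Slc19a2 at 26.5, 29.3 and 25.5 with PBS and 44.3 and 72.2 with poly(I:C) (1.04 ± 0.35), both higher.

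Fanconi anaemia genes were split, with 19 of 35 tested on the higher side (median 0.03). There was 1 at an unadjusted p under 0.05 (2.86%, against 4.41% of all genes). That gene, Faap24, a partner of the core complex, was at 15.9, 16.4 and 11.9 with PBS and 25.2 and 29.7 with poly(I:C) (0.86 ± 0.37). With reads thinned to 807686 per library, an alternative chosen after seeing the data, its difference was -0.014. Genes of the BCL2 family, which decides between survival and apoptosis, had a median of 0.04 (8 of 14 higher), and Bcl2l13 was at 169.7, 180.2 and 187 with PBS and 223 and 249 with poly(I:C) (0.40 ± 0.16).

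Antigen presentation genes of class I were on the higher side for 17 of 21 (median 0.18). An unadjusted p under 0.05 was reached by 1 (4.76%, against 4.41% of all genes). It was H2-M3, at 31.8, 26.7 and 13.6 with PBS and 33.5 and 45.8 with poly(I:C) (0.76 ± 0.33). Class II genes had a median of -0.13 (2 of 9 higher), and the treated libraries disagreed, at -0.54 and 0.58. H2-Ob, a modulator of class II loading, was at 196, 144 and 172 with PBS and 116 and 59.0 with poly(I:C) (-1.02 ± 0.34).

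Inflammation and NF-kB genes had 15 of 31 on the higher side (median -0.06). There were 4 higher and 1 lower at an unadjusted p under 0.05 (12.9% and 3.23%, against 4.41% and 4.16% of all genes). Tnfaip2 was at 39.8, 57.8 and 39.1 with PBS and 123 and 133 with poly(I:C) (1.50 ± 0.49) and Sod2, the mitochondrial superoxide dismutase, at 169.7, 136 and 180.2 with PBS and 200.1 and 278 with poly(I:C) (0.55 ± 0.21). The inflammasome gene Nlrp3 was at 2.65, 2.59 and 0 with PBS and 12.0 and 6.13 with poly(I:C), a few reads per library. Il1r1, the receptor of interleukin-1, was at 371, 288 and 359 with PBS and 145 and 152 with poly(I:C) (-1.18 ± 0.44), below the vehicle in both treated libraries.

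In the TGF-beta pathway, which holds stem cells quiescent, 14 of 22 tested genes were on the lower side (median -0.22) and 4 had an unadjusted p under 0.05 (18.2%, against 4.16% of all genes). The 4 became 1 without PBS replicate 7 and 2 without PBS replicate 8 (591 and 372 over all genes). Without poly(I:C) replicate 8 the list's median was -0.26. The receptor gene Tgfbr2 was at 159, 239 and 218 with PBS and 149 and 139 with poly(I:C) (-0.49 ± 0.18). Its nuclear corepressors Skil and Tgif1 were at 141, 183 and 179 with PBS and 131 and 109.9 with poly(I:C) (-0.47 ± 0.21) and at 169.7, 179 and 170.0 with PBS and 143 and 119.8 with poly(I:C) (-0.40 ± 0.18). Receptors of cytokines and growth factors were split, with 18 of 40 higher (median -0.07). Of the 40, 4 each way had an unadjusted p under 0.05 (10% each, against 4.41% and 4.16% of all genes). Among them the monocyte chemokine receptor gene Ccr2 was at 84.9, 91.4 and 93.5 with PBS and 202 and 640.1 with poly(I:C) (1.99 ± 0.67). Tribbles kinases and C/EBP factors were higher for 7 of 8 (median 0.86). Trib2 and Cebpa were those at an unadjusted p under 0.05 (25%, against 4.41% of all genes).

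Immediate early genes, which respond within minutes to signals and handling, separated the libraries numbered 7 from the other 3. Their list medians were -1.48, 1.76 and -0.30 in PBS replicates 2, 7 and 8 and 0.89 and -0.91 in poly(I:C) replicates 7 and 8, and 0 of 24 genes had an unadjusted p under 0.05. Fos, chosen here after its values were seen, was at 31.8, 2646 and 194 with PBS and 1507 and 91.5 with poly(I:C), Egr1 at 26.5, 583 and 56.1 with PBS and 236 and 16.5 with poly(I:C) and Junb at 18.6, 229 and 64.6 with PBS and 132 and 41.0 with poly(I:C). Both libraries numbered 7 were high in all 3 genes. Their titles end in _d and those of the other 3 in _d_2, and the part of what this suffix stands for was not tested.

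The same contrast in the other genotypes places these values. The difference of the responses was tested with limma for all 12628 genes, and 0 passed an adjusted p of 0.05 against WT, FancgKO or Mdm4Tg (0% in each). At an unadjusted p under 0.05 there were 62 genes (0.491%) against WT, 102 (0.808%) against FancgKO and 66 (0.523%) against Mdm4Tg. Each share was well below the 0.05 expected with no difference, so these p-values ran high, for a reason not tested. Few calls here therefore do not show that the genotypes responded alike. With edgeR and DESeq2 the counts of called genes were also 0. Xist ran from 0.313 to 20207 in the WT poly(I:C) libraries and from 0 to 18007 in the FancgKO PBS libraries. Replicates of these groups thus did not all come from the same animal. In every FancgKO_Mdm4Tg library Xist was at 1.72 or less, and its part in the differences was not tested.

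Trib2 differed between poly(I:C) and PBS by 2.35 ± 0.40 in WT, 1.25 ± 0.40 in FancgKO and 2.50 ± 0.48 in Mdm4Tg, beside 2.47 ± 0.48 in FancgKO_Mdm4Tg. Its response minus that of FancgKO was 1.22 ± 0.62 (limma unadjusted p 0.0626, adjusted p 1). For Il1rl1 the values were 2.08 ± 0.39, 1.13 ± 0.39 and 2.52 ± 0.46, and for Ms4a2 1.71 ± 0.37, 1.43 ± 0.37 and 2.34 ± 0.45. In each of these 3 genes FancgKO had the smallest of the 4 values, by a margin that the test of the difference did not resolve. E2f8 and Stat4 kept their sign in all 4 genotypes, at 0.44 to 0.82 and at -1.12 to -0.62.

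For each of 5 lists the median had the same sign in the 4 genotypes, and the differences between these medians were not tested. For neutrophil and monocyte progenitor genes they were 1.18 in WT, 1.01 in FancgKO and 1.17 in Mdm4Tg, beside 1.17 in FancgKO_Mdm4Tg. Stem cell genes had -0.50, -0.38 and -0.55, beside -0.50. For lymphoid progenitor genes the medians were -0.81, -0.37 and -0.83, beside -0.61, and for erythroid genes 1.35, 0.65 and 1.24, beside 0.98. In the interferon-stimulated list they were -0.08, -0.16 and -0.15.

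The genes nearest to a difference were taken among those with a mean count of at least 50 over the libraries compared. Hs6st1, a heparan sulfate sulfotransferase, was at 45.1, 41.4 and 47.6 with PBS and 74.3 and 74.1 with poly(I:C) in FancgKO_Mdm4Tg (0.72 ± 0.20) and differed by -0.15 ± 0.17 in WT. The difference of the responses was 0.87 ± 0.26 (limma unadjusted p 0.00286, adjusted p 1). Ddx18 followed at 0.71 ± 0.27 and Hemgn, a nuclear protein of blood progenitors, at 0.74 ± 0.27 against WT. Hemgn was at 63.6, 57.8 and 61.2 with PBS and 59.9 and 78.3 with poly(I:C) (0.17 ± 0.21, and -0.022 without poly(I:C) replicate 8) and differed by -0.57 ± 0.17 in WT.

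Against FancgKO, Pde5a, a cyclic GMP phosphodiesterase, was at 31.8, 50.9 and 39.1 with PBS and 95.8 and 86.3 with poly(I:C) (1.17 ± 0.30) and differed by 0.06 ± 0.25 in FancgKO, a difference of responses of 1.11 ± 0.39 (limma unadjusted p 0.00937, adjusted p 1). Against Mdm4Tg the small nuclear RNA Rnu12 was at 141, 141 and 159.8 with PBS and 103 and 124 with poly(I:C) (-0.38 ± 0.32) and differed by 1.24 ± 0.32 in Mdm4Tg, a difference of -1.62 ± 0.45 (unadjusted p 0.00172, adjusted p 1). Procr, with -0.32 ± 0.59 in Mdm4Tg, had a difference of -1.64 ± 0.83 there (unadjusted p 0.062). None of these passed the adjusted threshold.

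**Figure D5:**
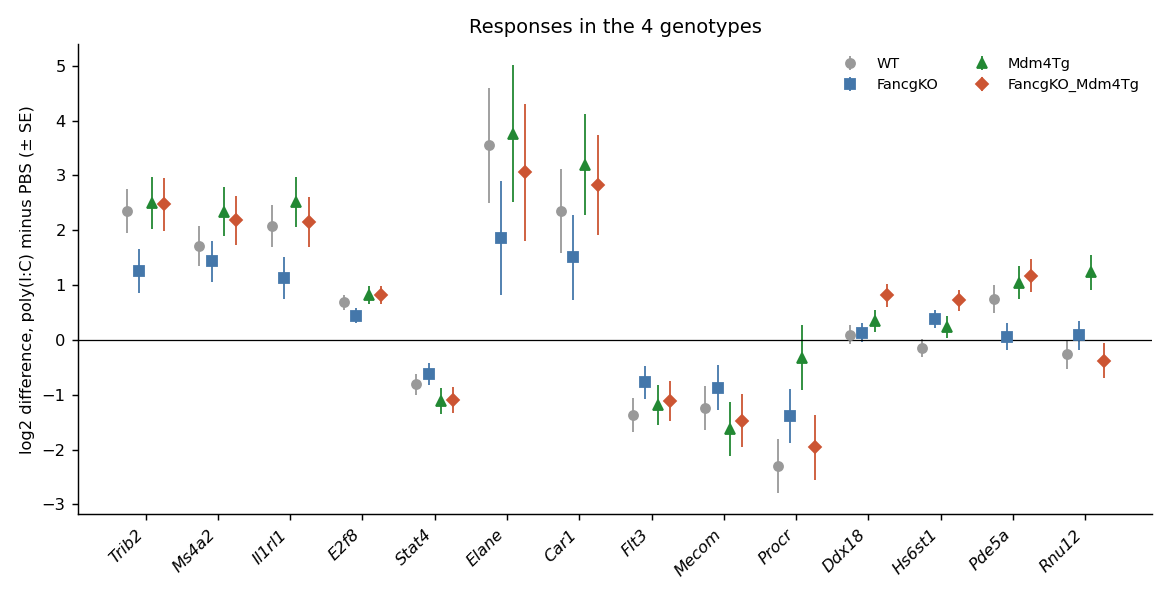
Log2 difference between poly(I:C) and PBS (y axis, ± SE from limma) of 14 genes in the 4 genotypes, each with its own PBS and poly(I:C) libraries. The red diamonds of FancgKO_Mdm4Tg lie within 1 SE of the Mdm4Tg values for Trib2, Ms4a2, Il1rl1, E2f8 and Stat4, and furthest from them for Rnu12 and Procr.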

How the data were processed

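The libraries hold polyadenylated RNA of sorted bone marrow cells, made with the CATS RNA-seq Kit v2, per the labels. The authors deposited a signal value per gene and library, which the file name calls normalised counts. Per the submitters' processing notes, STAR and mm10 were used; the read counter and normalisation tool are not given in the sources used here. Dividing each column by its lowest positive value gave whole numbers (100% at a relative tolerance of 1e-06), so whole reads were recovered for edgeR 4.0.16 and DESeq2 1.42.0. Of 26267 genes, 16217 were named in the file, 10006 from GENCODE M21 and 44 not.

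Genes with at least 10 in at least 2 of the 24 libraries were kept, 12628 in all, and log2(normalised count + 1) was fitted with limma 3.58.1 (R 4.3.3) as 8 group means with a mean-variance trend. Fold changes are therefore on the log2(value + 1) scale, which understates low genes. P-values were adjusted over all 12628 genes with Benjamini-Hochberg. The series held 807686 to 8229715 reads per library (median 2583130). The fit was tested on simulated data.

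Genes named are the 12 largest differences per direction. These had a mean of at least 50 over the 5 libraries, an unadjusted p under 0.05 and no overlap of groups. Up to 4 members per list by p, cell type markers and a fixed set were added. So were up to 4 genes per difference of responses, with a mean of at least 50 over the libraries compared. Comparison, 37 lists and rule were chosen with earlier results of these data known. Alternatives were other pseudocounts, filters and scalings, no trend, array weights, the 5 libraries alone, a replicate block, edgeR, DESeq2 and leaving out each library. Tables and plots used python 3.11.15, numpy 2.4.6, pandas 2.3.3 and matplotlib 3.10.9.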

Additional observations from a re-analysis of the deposited data

How the results depend on the processing

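With limma, 0 genes passed the adjusted threshold under every pseudocount, filter, scaling, trend, weight and leave-one-out setting run without a replicate block, and edgeR gave 0 as well. DESeq2 gave 5. The differences of responses gave 0 called genes under each alternative run. Genes at an unadjusted p under 0.05 ranged from 222 to 929 higher and from 235 to 780 lower when 1 of the 5 libraries was left out, and both extremes on each side came from leaving out a poly(I:C) library. With no filter on low values they were 1088 and 790, over more genes tested, and with at least 50 in 2 libraries 336 were lower, over fewer. Of 121 named genes, 5 changed sign under some alternative, none past the threshold. Cdkn1a was at -0.0082 with edgeR and ran from -0.10 to 0.22 with 1 library left out. Ifit1 was at 0.035 under quantile normalisation (-0.45 to 0.18). Irf7 was at -0.20 with array weights, -0.28 with edgeR and -0.30 with DESeq2 (-0.53 to 0.47). Hemgn ran from -0.022 to 0.36. Faap24 was at -0.014 with reads thinned to 807686 per library, an alternative chosen after seeing the data. The causes were not tested.

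The replicate numbers 7 and 8 are shared by the groups, and what a number stands for is not given in the sources used here. Same-numbered libraries correlated at 0.411 and 0.140 after group means were removed, and other pairs at -0.411 to 0.255. The deviations of the 2 poly(I:C) libraries from their mean are mirror images, so these values cannot decide on pairing. Before group means were removed, the libraries numbered 7 correlated at 0.970 and those numbered 8 at 0.929. The remaining pairs of the 5 libraries were at 0.917 to 0.951. With only 2 numbers shared by these groups, and their meaning not given, the libraries were not treated as paired. The numbers also recur in the other groups of the series, 7 in every group. A block over all 24 libraries draws on those groups as well. With the number as a replicate block over all 24 libraries, 136 genes were called (48 higher, 88 lower). In the 5 libraries alone, where PBS replicate 2 adds nothing, 242 were called. All 5 genes called by DESeq2 were among the 136. Genes at an unadjusted p under 0.05 were 1107 higher and 1034 lower with the block, and 963 and 1006 in the 5 libraries alone. Cdkn1a was then at -0.032, and Irf7 at -0.22 and -0.53. With the replicate block and 1 library left out together, chosen after seeing the data, the calls were 212 without PBS replicate 2, 27 without PBS replicate 7, 235 without poly(I:C) replicate 7, and 0 without PBS replicate 8 or poly(I:C) replicate 8. The depth of PBS replicate 2, where 1 read is worth 2.65, limits genes of low count most.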
